A study of Mus musculus with 12 samples.

Results

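The genes described here are 40 members of the NRF2, glutathione and metal response, taken from the 27473 features of the count table by their gene symbol, with the feature of the highest mean count standing for a symbol that repeats. They are the regulators Nfe2l2 and Keap1, quinone and haem enzymes, glutathione synthesis, the thioredoxin system, peroxiredoxins, glutathione peroxidases, superoxide dismutases, glutathione S-transferases, metallothioneins with a zinc exporter, and ferritin. Counts above 0 were found for 39 of the 40. Gss, which encodes glutathione synthetase, was at 0 in all 12 libraries, and its counted feature spanned 291 bases where the longest annotated Gss transcript has 1963 bases, so that its 0 says nothing about the level of the gene. The other 39 passed the filter on low counts in every comparison.

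The libraries profile RNA of 3T3-L1 adipocytes, which are mouse preadipocytes of an established line turned into fat cells in culture, to ask which transcripts change when the DNA methyltransferase Dnmt3a is raised or lowered. Lentivirus was added to the mature cells on day 8 of differentiation and RNA was taken 4 days after transduction, with 3 libraries in each of 4 groups. Dnmt3a cells carried a pCDH vector expressing Dnmt3a, and their GFP controls carried pCDH with GFP. shDnmt3a cells expressed a short hairpin RNA against Dnmt3a, and their shScr controls expressed a scrambled hairpin. All 12 libraries came from the same cell line, were differentiated with dexamethasone, IBMX and insulin, and had been exposed to lentivirus, so no untransduced cells were available for comparison. The sources do not say which Dnmt3a hairpin the sequenced cells carried. The replicates are described as biological triplicates without stating whether they were separate differentiations, so the p-values measure the spread between these libraries.

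NRF2, the product of Nfe2l2, is a transcription factor that KEAP1 holds in the cytoplasm and marks for degradation. Oxidants and electrophiles modify cysteines of KEAP1, and NRF2 then enters the nucleus and binds antioxidant response elements (AREs) with small MAF proteins to drive genes for glutathione synthesis, thioredoxin reduction, quinone reduction and ferritin. Zinc and cadmium act through a separate factor, MTF1, which binds metal response elements (MREs) of the metallothionein genes and of the zinc exporter gene Slc30a1. In fat cells these enzymes handle the peroxides and lipid aldehydes that accompany fatty acid oxidation and storage.

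The upstream sequences of 4 members are shown because the metal genes separated in the knock-down and to set an ARE-bearing promoter beside them, that of Srxn1. Each is the 250 bases before the RefSeq start site (table built on GRCm38.p6), written 5′ to 3′ on the gene's strand, and each was found exactly once in the mm9 genome used for the counts. Mt2 lies at chr8:96696268-96696517, Mt1 at chr8:96702739-96702988, Slc30a1 at chr1:193730410-193730659 and Srxn1 at chr2:151931010-151931259, all on the plus strand. Capitals mark the MRE core, TGCACNC or TGCGCNC on either strand, in the first 3 sequences, and the ARE core, TGACNNNGC or TGAGNNNGC on either strand, in Srxn1.
Mt2: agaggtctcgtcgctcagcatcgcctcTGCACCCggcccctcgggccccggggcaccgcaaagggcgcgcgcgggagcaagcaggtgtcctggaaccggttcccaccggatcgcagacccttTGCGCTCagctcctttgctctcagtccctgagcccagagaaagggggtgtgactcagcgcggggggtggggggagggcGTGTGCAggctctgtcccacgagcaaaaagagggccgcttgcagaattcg
Mt1: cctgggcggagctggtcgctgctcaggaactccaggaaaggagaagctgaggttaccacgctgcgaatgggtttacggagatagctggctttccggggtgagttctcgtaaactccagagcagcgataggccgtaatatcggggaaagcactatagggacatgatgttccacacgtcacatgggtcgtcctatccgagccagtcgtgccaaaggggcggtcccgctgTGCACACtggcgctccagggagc
Slc30a1: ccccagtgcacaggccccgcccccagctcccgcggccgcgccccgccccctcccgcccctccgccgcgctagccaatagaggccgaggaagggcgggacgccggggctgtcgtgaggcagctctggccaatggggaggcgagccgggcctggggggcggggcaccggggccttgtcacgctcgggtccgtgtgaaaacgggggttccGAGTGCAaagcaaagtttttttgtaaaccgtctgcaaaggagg
Srxn1: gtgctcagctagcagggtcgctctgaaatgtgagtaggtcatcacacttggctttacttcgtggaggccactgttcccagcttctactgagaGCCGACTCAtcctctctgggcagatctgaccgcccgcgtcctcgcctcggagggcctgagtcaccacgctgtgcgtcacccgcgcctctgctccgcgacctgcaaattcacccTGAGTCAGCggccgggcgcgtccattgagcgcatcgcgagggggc
In Mt2 the MRE cores began 223, 128 and 50 bases before the start site, against 1 core at 23 bases in Mt1 and 1 core at 43 bases in Slc30a1. These counts hold for the 250 bases before each listed start site. Bases downstream of that site were not searched, so the genes cannot be ranked by their number of cores. An MRE core occurred in 21.4% of all 32851 promoters of the table and 3 or more in 1.26%. The ARE cores of Srxn1 began 158 and 45 bases before the start site, and 23.0% of all promoters held at least 1. Slc30a1 and Gstp1 also held 2 ARE cores, Mt2 held 1 ARE core and Srxn1 held 1 MRE core, which are not capitalised here. Of the 40 members, 34 had an entry with 42 start sites between them, of which 12 held an ARE core and 11 an MRE core. These windows held 21 CG dinucleotides in Mt2, 17 in Mt1, 25 in Slc30a1 and 21 in Srxn1, against a median of 6 over all promoters. A match of letters is a description and not a bound site, and no methylation was measured here.

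Each library held 29084732 to 47341091 counts over all features. Levels are given as CPM, the counts divided by the library total and brought to a common size, with trimmed mean of M-values (TMM) scaling. A gene was called when the quasi-likelihood test of edgeR gave an adjusted p under 0.05, adjusted after Benjamini and Hochberg over all features tested. Dnmt3a itself stood at 2743, 2776 and 2729.8 CPM in Dnmt3a cells, against 93.2, 90.7 and 96.6 CPM in GFP cells. It stood at 41.0, 39.3 and 39.4 CPM in shDnmt3a cells, against 81.2, 86.3 and 78.5 CPM in shScr cells, so every library matched its label. The 12 adipocyte markers summed to between 19532.5 and 29977.1 CPM in every library, and the 8 macrophage or leukocyte markers to at most 23.1 CPM, with Emr1 at 0 throughout. In bulk RNA, fewer cells of a type and less RNA per cell cannot be told apart.

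Per kilobase of counted sequence, the most abundant members in GFP cells were the ferritin chains Ftl1 (1220.4 ± 8.64 CPM per kb) and Fth1 (919 ± 66.6), followed by the microsomal transferase Mgst1 (661 ± 46.6), the cytosolic superoxide dismutase Sod1 (460.1 ± 37.2) and the lipid peroxidase Gpx4 (400.1 ± 24.7; SD, n = 3 each). Prdx1 (190.2 ± 10.2 CPM per kb) and Prdx2 (188.8 ± 5.93) did not differ beyond their spread. At the low end stood Slc30a1 (3.60 ± 0.108), Gsta3 (1.01 ± 0.0576) and Gpx3 (0.514 ± 0.216 CPM per kb). The counted feature of Slc30a1 spanned 9592 bases where its longest annotated transcript has 5244 bases, so its place depends on the length used. Copies limit some of these values. The longest transcript of each member was compared with the protein-coding transcripts of the mm9 gene models. Of its 50-base stretches, 74.6% recur in Gm10116 for Ftl1 and 67.5% in Gstp2 for Gstp1. For Gstm1 14.8% recur in other transcripts that include Gstm2 and Gstm3. Smaller shares were found for Prdx1 (9.49%) and Gstm2 (5.62%), among others. Reads of these genes could have been split or lost. Copies outside protein-coding transcripts were not searched, so a member not named here could have them. All members together took 0.861% to 0.870% of the counts in Dnmt3a libraries, against 0.745% to 0.783% in GFP libraries. The share was 0.740% to 0.760% in shDnmt3a libraries, against 0.786% to 0.823% in shScr libraries. Neither pair of groups overlapped. Abundant members weigh most in these shares. Ftl1 and Fth1 stood at 1558 and 1462 CPM in Dnmt3a cells, against 1209 and 1104 CPM in GFP cells. In the knock-down pair they stood at 1558 and 1219 CPM in shDnmt3a cells, against 1390 and 1217 CPM in shScr cells (means).

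**Figure D1:**
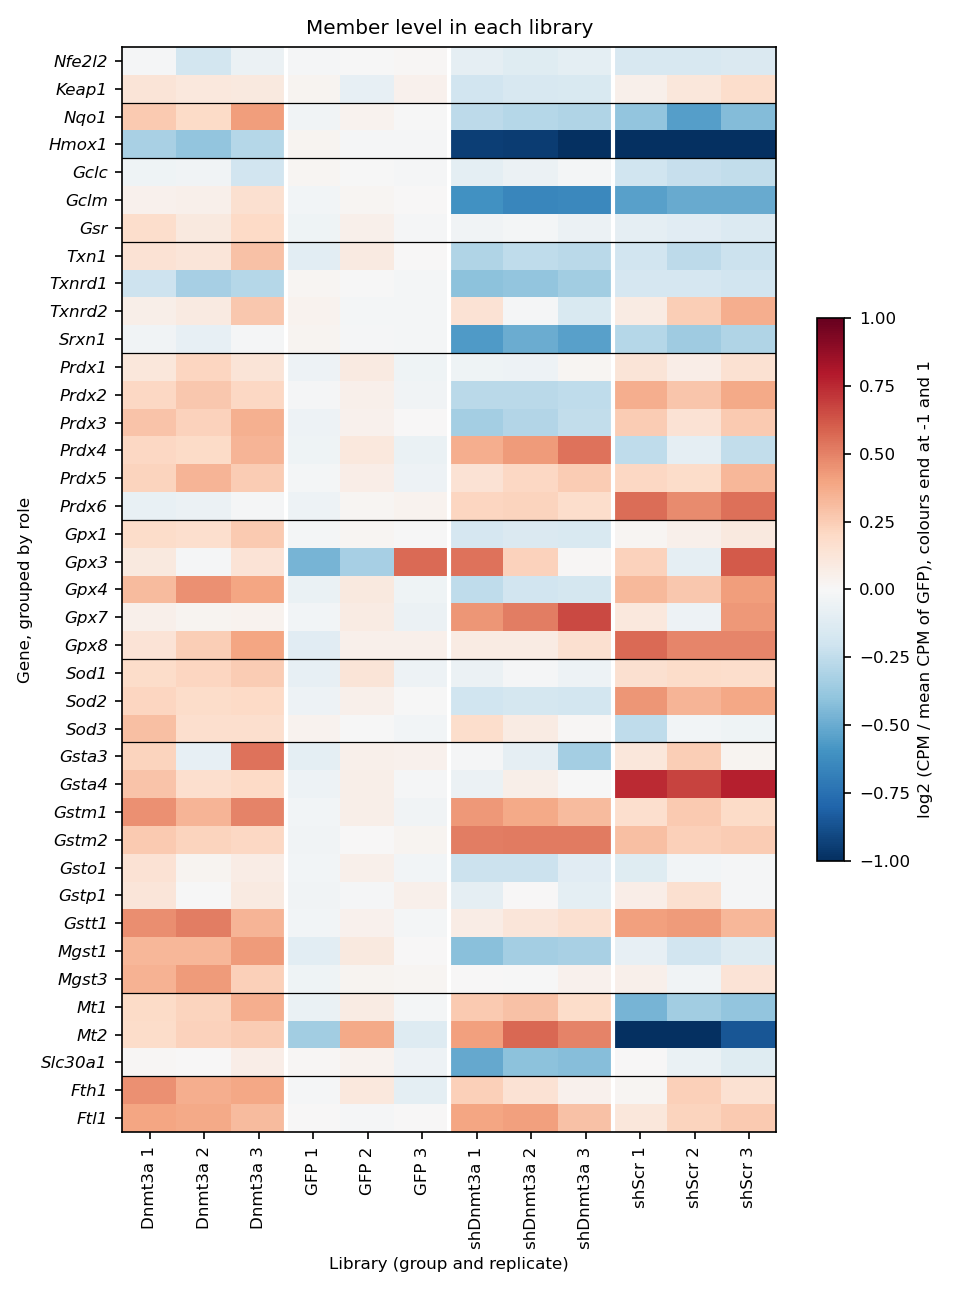
Level of each of the 39 members with counts in each of the 12 libraries, as the log2 ratio of its CPM to the mean CPM of the GFP group, with genes in rows grouped by role and groups of 3 libraries separated by white lines; colours end at −1 and 1. Red prevails in the Dnmt3a columns, and Hmox1, at 227 to 239 CPM in shDnmt3a libraries and 145 to 152 CPM in shScr libraries, is the row that is dark blue in all 6 of these libraries.

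With Dnmt3a overexpression, most of the response genes were slightly higher. Of the 39 members tested, 24 were higher in Dnmt3a than in GFP cells, 2 were lower (Hmox1 and Txnrd1) and 13 were not called, so that 66.7% were called, against 27.2% of the 14168 features tested. Among all features 14.3% were higher and 12.9% lower. The changes were small. The median log2 fold change of the members was 0.22, against −0.0066 over all features, the range was −0.33 to 0.44, and 0 of the 39 reached an absolute value of 0.5, which 3.47% of all features did with a call. The CPM of the groups did not overlap for 30 of the 39 members, against 39.3% of all features.

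These counts changed with scaling, and adipocyte markers were also higher in Dnmt3a cells. Dnmt3a libraries had TMM factors of 0.956 to 0.972, against 1.003 to 1.014 in GFP libraries. Without that scaling 21 members were higher and 6 lower, and of all calls 26.4% were higher in place of 52.6%. All 12 adipocyte markers were called higher in Dnmt3a cells, where they summed to 29574.8 to 29977.1 CPM, against 23910.2 to 24924 CPM in GFP cells. Their median log2 fold change was 0.23, beside 0.22 for the members. Of the 10 fibroblast or preadipocyte markers 1 was higher and 4 were lower, with sums of 7336.2 to 8025.4 CPM in Dnmt3a cells and 7516.8 to 7799.3 CPM in GFP cells. Col3a1, which was not called, held most of these sums, with means of 5885.3 CPM in Dnmt3a cells and 5627 CPM in GFP cells. The 3 genes that reflect RNA isolation and rRNA removal, all called higher, summed to 829 to 1363 CPM in Dnmt3a cells and 458 to 814 CPM in GFP cells. Of these 3, Lars2 overlapped between the groups, at 176.5 to 430 CPM in Dnmt3a cells and 25.2 to 323 CPM in GFP cells. Of the 6 macrophage or leukocyte markers tested 2 were higher (Cd53 by 0.80 and Cd68 by 0.55), with sums over the 8 in the table of 20.6 to 22.5 CPM in Dnmt3a cells and 16.1 to 16.9 CPM in GFP cells. The part of these markers in the result was not tested.

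With Dnmt3a knock-down, members moved in both directions and further. Of the 39 tested, 11 were higher in shDnmt3a than in shScr cells, 19 were lower and 9 were not called, so that 76.9% were called, against 45.8% of the 14115 features tested. Among all features 23.3% were higher and 22.5% lower. A log2 fold change of at least 0.5 was reached by 4 of the called members (Mt2, Hmox1, Mt1 and Prdx4), against 7.26% of all features. A value of −0.5 or below was reached by 5 (Gsta4, Prdx2, Sod2, Gpx4 and Prdx3), against 4.27% of all features. The members' median was −0.12, against −0.00027 over all features, with a range of −0.73 to 1.60, and the CPM of the groups did not overlap for 31 members, against 52.9% of all features.

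Of the 12 adipocyte markers 3 were higher and 5 lower with the knock-down, with sums of 19532.5 to 19849.5 CPM in shDnmt3a cells and 20095.3 to 20544.1 CPM in shScr cells. The 10 fibroblast or preadipocyte markers split into 3 higher and 5 lower, with sums of 13124.3 to 13171 CPM in shDnmt3a cells and 9029.1 to 9651.9 CPM in shScr cells. Col3a1 alone held most of these sums, with means of 11593.3 CPM in shDnmt3a cells and 7587.5 CPM in shScr cells. Of the 6 macrophage or leukocyte markers tested 2 were higher and 1 was lower, with sums over the 8 in the table of 22.2 to 23.1 CPM in shDnmt3a cells and 12.6 to 14.1 CPM in shScr cells. Cd53 alone stood at 11.3 ± 0.413 CPM and 2.96 ± 0.453 CPM in the same order (SD, n = 3 each). Of the 3 genes that reflect RNA isolation and rRNA removal 1 was higher. The 3 summed to 731 to 849 CPM in shDnmt3a cells and 473 to 796 CPM in shScr cells. The part of these markers in the result was not tested.

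**Figure D2:**
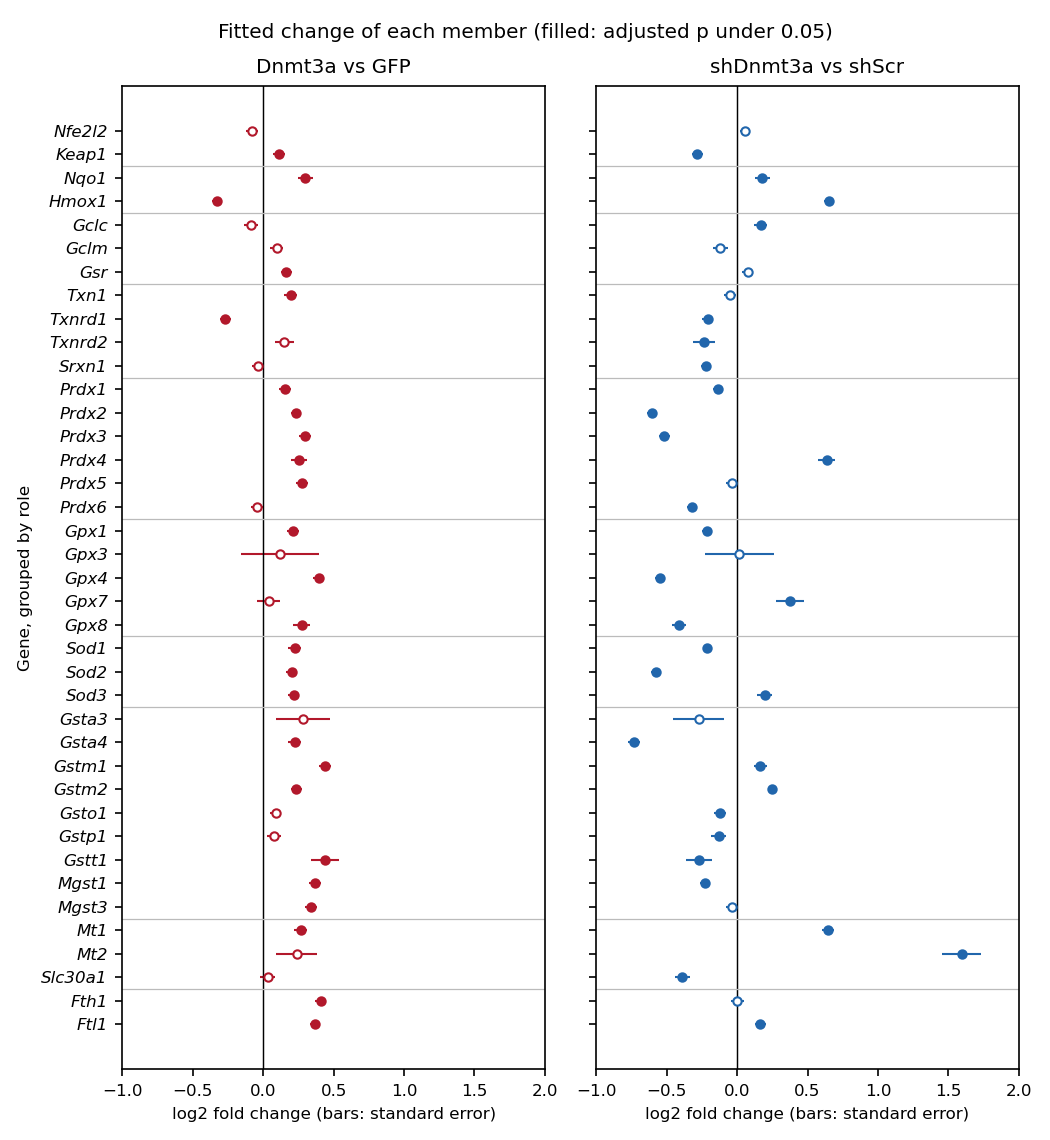
Fitted log2 fold change of each of the 39 tested members in Dnmt3a versus GFP (left) and shDnmt3a versus shScr (right), with standard errors as bars and filled points where the adjusted p is under 0.05. On the left the values lie between −0.33 and 0.44, and on the right between −0.73 (Gsta4) and 1.60 (Mt2).

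Of the regulators, Nfe2l2 was called in neither comparison and Keap1 in both. Nfe2l2, at chr2:75513570-75542698 in mm9, stood at 95.5, 84.8 and 92.3 CPM in Dnmt3a cells, against 95.6, 96.0 and 97.3 CPM in GFP cells. It stood at 90.6, 88.6 and 89.8 CPM in shDnmt3a cells, against 86.2, 86.0 and 87.0 CPM in shScr cells. Neither pair overlapped, yet neither difference was called, with log2 fold changes of −0.08 (SE 0.042, adjusted p = 0.173, edgeR) and 0.05 (SE 0.036, adjusted p = 0.248). NRF2 is regulated mainly through the stability of its protein, which RNA counts do not measure. Without TMM scaling the overexpression value was called, at −0.14 (adjusted p = 0.00736).

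Keap1, the adaptor that brings NRF2 to its ubiquitin ligase (chr9:21034174-21043776), stood at 105, 103 and 103 CPM in Dnmt3a cells, against 98.4, 91.0 and 99.5 CPM in GFP cells. It stood at 84.2, 86.0 and 86.5 CPM in shDnmt3a cells, against 99.7, 104 and 109 CPM in shScr cells. Its Dnmt3a libraries thus lay above all GFP libraries and its shDnmt3a libraries below all shScr libraries. The knock-down difference was −0.28 (SE 0.040, adjusted p = 9.39e-06, edgeR). The overexpression difference of 0.11 (SE 0.041, adjusted p = 0.0391) was not called without GFP replicate 2 (0.187), without Dnmt3a replicate 1 (0.118), 2 (0.0867) or 3 (0.0692), or without TMM scaling (0.436).

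The haem and quinone enzymes differed from each other. Hmox1 encodes haem oxygenase, which breaks haem down to biliverdin, carbon monoxide and iron, and lies at chr8:77617490-77624495. It stood at 368, 349 and 377 CPM in Dnmt3a cells, against 467, 456 and 454 CPM in GFP cells, a log2 fold change of −0.33 (SE 0.038, adjusted p = 2.17e-08, edgeR). In shDnmt3a cells it stood at 239, 237 and 227 CPM, against 145, 151 and 152 CPM in shScr cells, a log2 fold change of 0.65 (SE 0.036, adjusted p = 2.38e-11). It was the only member called lower with overexpression and higher with knock-down, a pattern that 3.63% of the 13893 features tested in both comparisons had. Nqo1, which reduces quinones, rose in both comparisons, by 0.30 with overexpression (SE 0.052, adjusted p = 2.81e-05) and by 0.18 with knock-down (SE 0.053, adjusted p = 0.0101). Without shScr replicate 2 the knock-down value of Nqo1 was 0.13 and not called (adjusted p = 0.0745).

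The glutathione synthesis genes showed small changes. Gclc and Gclm encode the catalytic and modifier subunits of glutamate-cysteine ligase, the first step of synthesis, and neither was called with overexpression (log2 fold changes of −0.09 and 0.09). With knock-down Gclc rose by 0.17 (adjusted p = 0.0051, edgeR), while Gclm was at −0.12 and was not called (adjusted p = 0.0694, or 0.043 in a fit of all 12 libraries). Gsr, the reductase that returns oxidised glutathione to its reduced form, rose with overexpression by 0.16 (adjusted p = 0.00243) and was at 0.07 with knock-down (adjusted p = 0.114). Without TMM scaling the overexpression value of Gsr was 0.10 and was not called (adjusted p = 0.0651).

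In the thioredoxin system, Txnrd1, the cytosolic thioredoxin reductase, was the only member called lower in both comparisons. It stood at 81.9 ± 3.52 CPM in Dnmt3a cells and 99.1 ± 1.55 CPM in GFP cells, and at 75.9 ± 1.72 CPM in shDnmt3a cells and 87.7 ± 0.941 CPM in shScr cells (SD, n = 3 each). The log2 fold changes were −0.27 (adjusted p = 2.69e-06, edgeR) and −0.21 (adjusted p = 0.000165). Srxn1 encodes sulfiredoxin, which restores over-oxidised peroxiredoxins, and its upstream sequence holds the 2 ARE cores printed above. It fell by 0.22 with knock-down (adjusted p = 7.41e-05) and was at −0.04 with overexpression (adjusted p = 0.492). Thioredoxin, Txn1, rose by 0.19 with overexpression (adjusted p = 0.00226), which was not called without Dnmt3a replicate 3 (adjusted p = 0.0528). The mitochondrial reductase Txnrd2 fell by 0.24 with knock-down (adjusted p = 0.0197), a call that was lost without shScr replicate 2 (0.0514) or 3 (0.12) and without shDnmt3a replicate 2 (0.0577) or 3 (0.107).

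Peroxiredoxins reduce peroxides with electrons from thioredoxin, and 5 of the 6 were higher in Dnmt3a cells, with log2 fold changes of 0.16 to 0.30. Prdx6, which uses glutathione, was at −0.04 and was not called. With knock-down 4 fell (Prdx1, Prdx2, Prdx3 and Prdx6), Prdx4 rose and Prdx5 was not called. Prdx2, an abundant cytosolic form (chr8:87493486-87498733), stood at 211, 212 and 214 CPM in shDnmt3a cells, against 328, 309 and 332 CPM in shScr cells. Its levels were 295, 307 and 296 CPM in Dnmt3a cells, against 253, 264 and 249 CPM in GFP cells. The groups did not overlap in either comparison, and the log2 fold changes were −0.60 (SE 0.036, adjusted p = 5.05e-11, edgeR) with knock-down and 0.23 (SE 0.039, adjusted p = 1.62e-05) with overexpression.

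Prdx3, the mitochondrial form (chr19:60939954-60950459), stood at 137, 142 and 147 CPM in shDnmt3a cells, against 208, 193 and 209.6 CPM in shScr cells. Its levels were 213, 204 and 223 CPM in Dnmt3a cells, against 168, 180.1 and 175 CPM in GFP cells. The values separated in both pairs, with log2 fold changes of −0.52 (SE 0.040, adjusted p = 2.79e-09, edgeR) and 0.30 (SE 0.042, adjusted p = 8.3e-07). Prdx4 encodes the peroxiredoxin of the endoplasmic reticulum (chrX:151758461-151775297). It stood at 38.6, 40.2 and 43.7 CPM in shDnmt3a cells, against 25.2, 28.2 and 25.3 CPM in shScr cells. In Dnmt3a cells it stood at 34.5, 34.3 and 37.9 CPM, against 29.1, 32.2 and 28.6 CPM in GFP cells. Prdx4 was thus higher in both comparisons without overlap, by 0.64 (SE 0.061, adjusted p = 5.78e-08) with knock-down and by 0.25 (SE 0.057, adjusted p = 0.000829) with overexpression.

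Glutathione peroxidases also moved in both directions with knock-down. Gpx4 reduces lipid hydroperoxides within membranes and protects cells from ferroptosis, an iron-dependent form of cell death (chr10:79509911-79519184). It stood at 502, 523 and 528 CPM in shDnmt3a cells, against 749, 722 and 798 CPM in shScr cells. It stood at 743, 819.8 and 785 CPM in Dnmt3a cells, against 572, 640.1 and 581 CPM in GFP cells. The lowest control library in the knock-down pair lay far above the highest shDnmt3a library, and the log2 fold changes were −0.55 (SE 0.038, adjusted p = 5.57e-10, edgeR) with knock-down and 0.39 (SE 0.042, adjusted p = 3.94e-09) with overexpression. Gpx1, which reduces hydrogen peroxide in the cytosol and mitochondria, changed by −0.21 and 0.21 in the same order. Gpx8, an enzyme of the endoplasmic reticulum, changed by −0.41 and 0.27. Gpx7, also of the endoplasmic reticulum, rose with knock-down by 0.37 (SE 0.099, adjusted p = 0.00415) and was at 0.04 with overexpression. Gpx3, the secreted plasma form, held only 22 to 41 counts a library and was called in no comparison.

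All 3 superoxide dismutases, which turn superoxide into hydrogen peroxide, were higher with overexpression, by 0.20 to 0.22. With knock-down the 2 intracellular forms fell and the extracellular form rose. Sod2, the manganese enzyme of mitochondria (chr17:13200705-13210985), stood at 205, 209 and 208 CPM in shDnmt3a cells, against 321, 299 and 309 CPM in shScr cells. It stood at 274, 268 and 272 CPM in Dnmt3a cells, against 228, 245 and 235 CPM in GFP cells. These groups did not overlap, with log2 fold changes of −0.58 (SE 0.035, adjusted p = 8.2e-11, edgeR) and 0.20 (SE 0.039, adjusted p = 0.000116). Sod1, the copper and zinc enzyme of the cytosol, fell by 0.21 with knock-down (adjusted p = 2.81e-05). Sod3, the extracellular form, rose by 0.20 (adjusted p = 0.00402).

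**Figure D3:**
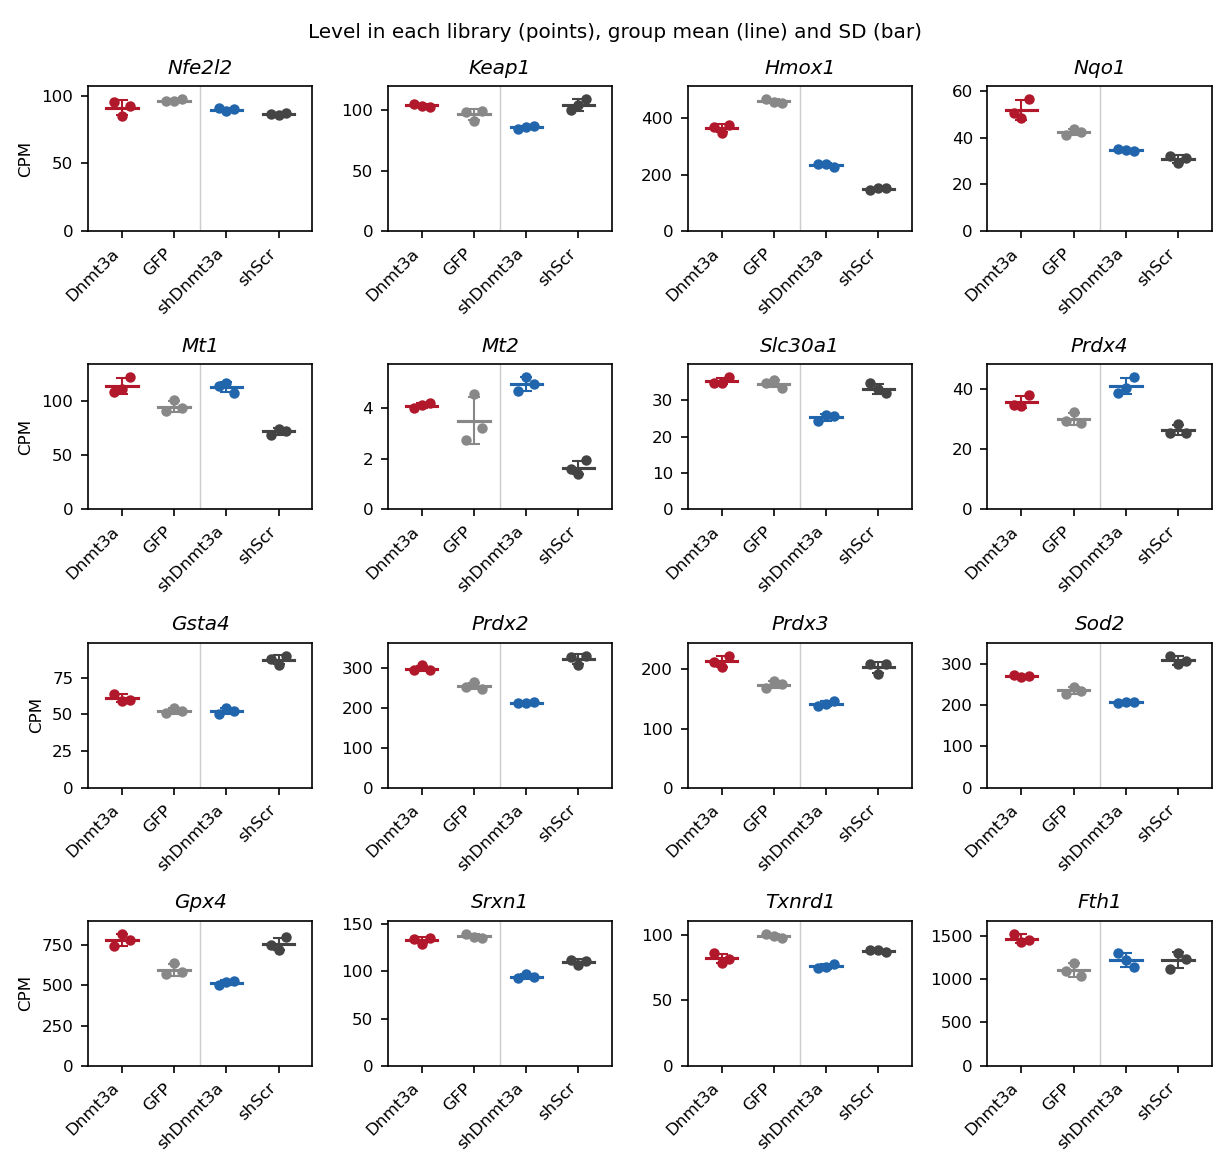
CPM of 16 members in each library (points) with the group mean (line) and SD (bar, n = 3), Dnmt3a beside GFP and shDnmt3a beside shScr, each axis starting at 0. Gsta4 stands at 50.4 to 54.4 CPM in shDnmt3a libraries and 83.8 to 89.9 CPM in shScr libraries, and Mt2 at 4.68 to 5.23 CPM and 1.42 to 1.94 CPM in the same groups.

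Glutathione S-transferases attach glutathione to electrophiles. With overexpression 6 of the 9 were higher (Gsta4, Gstm1, Gstm2, Gstt1, Mgst1 and Mgst3), by 0.22 to 0.44, and none of the 9 was lower. With knock-down 5 were lower (Gsta4, Gsto1, Gstp1, Gstt1 and Mgst1) and 2 were higher (Gstm1 by 0.17 and Gstm2 by 0.25). Gsta4 encodes the alpha-class enzyme that clears hydroxynonenal, an aldehyde formed from oxidised lipids (chr9:78039773-78057155). It stood at 50.4, 54.4 and 52.2 CPM in shDnmt3a cells, against 87.7, 83.8 and 89.9 CPM in shScr cells. It stood at 63.9, 58.8 and 60.0 CPM in Dnmt3a cells, against 50.7, 54.4 and 52.0 CPM in GFP cells. The shScr libraries were the highest of all 12, and the log2 fold changes were −0.73 (SE 0.044, adjusted p = 6.04e-11, edgeR) with knock-down and 0.22 (SE 0.046, adjusted p = 0.000317) with overexpression.

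The knock-down calls of Gsto1, Gstp1 and Gstt1 were each lost when any 1 of several libraries was left out, while the fitted values stayed negative. The call of Gsto1, at −0.12, was lost without shScr replicate 2 (0.0687) or 3 (0.0868) and without shDnmt3a replicate 1 (0.0932) or 2 (0.109), the values in parentheses being adjusted p from edgeR. Gstp1, at −0.13, was lost without shScr replicate 2 (0.201) and without shDnmt3a replicate 1 (0.129) or 3 (0.126). Gstt1, at −0.27, was lost without shScr replicate 2 (0.0579) and without shDnmt3a replicate 1 (0.0706) or 2 (0.0558). The last of these genes was also lost with DESeq2 (0.0674), as was Gstp1 (0.0527). Mgst1, the abundant microsomal enzyme, fell by 0.23 with knock-down (adjusted p = 4.29e-05) and rose by 0.37 with overexpression (adjusted p = 1.48e-08), with its calls in these comparisons kept under every library left out.

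The metal genes held the largest fitted change of any member in the overexpression and knock-down comparisons, that of Mt2 with knock-down. Metallothioneins are small cysteine-rich proteins that bind zinc and copper, and Mt2 and Mt1 lie next to each other on chromosome 8 (chr8:96696518-96697467 and chr8:96702989-96704225). Mt2 stood at 4.68, 5.23 and 4.96 CPM in shDnmt3a cells, against 1.60, 1.42 and 1.94 CPM in shScr cells, from 168, 217 and 176 counts and 56, 54 and 60 counts. This 3.02-fold difference (log2 fold change 1.60, SE 0.140, adjusted p = 1.64e-08, edgeR) left the groups far apart. In Dnmt3a cells Mt2 stood at 4.01, 4.14 and 4.20 CPM, against 2.77, 4.57 and 3.23 CPM in GFP cells. The GFP libraries spread around the Dnmt3a libraries, and the difference of 0.24 was not called (SE 0.143, adjusted p = 0.232). Without GFP replicate 2 it was 0.47 and was called (adjusted p = 0.0138).

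Mt1 stood at 114, 117 and 108 CPM in shDnmt3a cells, against 69.0, 74.8 and 72.6 CPM in shScr cells. It stood at 108, 111 and 122 CPM in Dnmt3a cells, against 90.8, 101 and 94.0 CPM in GFP cells. Mt1 was higher in both comparisons without overlap, by 0.65 (SE 0.043, adjusted p = 2.5e-10, edgeR) with knock-down and by 0.26 (SE 0.046, adjusted p = 2.59e-05) with overexpression. Slc30a1, which moves zinc out of the cytosol, went the other way with knock-down. Its level was 25.3 ± 0.999 CPM in shDnmt3a cells and 33.2 ± 1.42 CPM in shScr cells, and 35.2 ± 0.899 CPM in Dnmt3a cells and 34.6 ± 1.02 CPM in GFP cells (SD, n = 3 each). The log2 fold changes were −0.39 (SE 0.056, adjusted p = 1.22e-05) and 0.03 (SE 0.052, adjusted p = 0.698). With knock-down Mt1 and Mt2 thus rose while Slc30a1 fell. An MRE core lies upstream of each of these genes, and 21.4% of all promoters held at least 1. The part of these cores in the changes was not tested.

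Ferritin stores iron in a shell of heavy chains, encoded by Fth1, and light chains, encoded by Ftl1. Both were higher in Dnmt3a cells, Fth1 by 0.41 (SE 0.040, adjusted p = 6.02e-10, edgeR) and Ftl1 by 0.37 (SE 0.034, adjusted p = 2.11e-10). With knock-down Fth1 was at 0.00 (SE 0.049, adjusted p = 0.976) and Ftl1 rose by 0.16 (SE 0.039, adjusted p = 0.00182). Ferritin protein is also set by translation through the iron regulatory proteins, which was not measured.

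Both comparisons were then set side by side. They share no library, and 12 members were higher with overexpression and lower with knock-down (Gpx1, Gpx4, Gpx8, Gsta4, Gstt1, Keap1, Mgst1, Prdx1, Prdx2, Prdx3, Sod1 and Sod2), against 6.03% of the 13893 features tested in both. Hmox1 alone had the opposite pattern. A further 7 members were higher in both (Ftl1, Gstm1, Gstm2, Mt1, Nqo1, Prdx4 and Sod3), against 3.64% of those features. Txnrd1 was lower in both, as were 3.1% of the features. The count of 12 was 10 without TMM scaling and 10 at an adjusted p under 0.01, settings for it that were added after the data had been seen.

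The difference between the effects was tested with all 12 libraries, as the knock-down effect minus the overexpression effect. It was called for 31 of the 39 members, 6 of them positive and 25 negative, so that 79.5% were called, against 40.3% of the 14491 features tested, 19.9% positive and 20.4% negative. The members' median difference was −0.28. Mt2 (1.35, SE 0.218, adjusted p = 9.75e-06, edgeR) and Hmox1 (0.97, SE 0.052, adjusted p = 5.31e-15) had the largest positive values. Gsta4 (−0.97, SE 0.064, adjusted p = 4.6e-13) and Gpx4 (−0.95, SE 0.062, adjusted p = 3.68e-13) had the largest negative ones. The difference was not called for Txnrd1 (0.05), Gstm2 (0.01), Sod3 (−0.03), Nqo1 (−0.13), Gsr (−0.10), Nfe2l2 (0.12), Gpx3 (−0.12) or Gsta3 (−0.56). The positive call of Gpx7 (0.33, adjusted p = 0.0468) was lost when any of 10 of the 12 libraries was left out, at adjusted p of 0.0514 to 0.177. It was also lost with DESeq2 (0.0666). The negative call of Gstp1 (−0.22) was lost without shScr replicate 2 (0.0554). Without TMM scaling the negative calls of Gclm (adjusted p = 0.0683, edgeR), Srxn1 (0.057) and Gstp1 (0.0825) were lost. Nfe2l2 gained a call without TMM scaling (0.19, adjusted p = 0.00662), with a filter of 1 CPM in 3 libraries (0.13, 0.0497) and without Dnmt3a replicate 1 (0.15, 0.0367), and Gsta3 without Dnmt3a replicate 2 (−0.69, 0.0386).

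**Figure D4:**
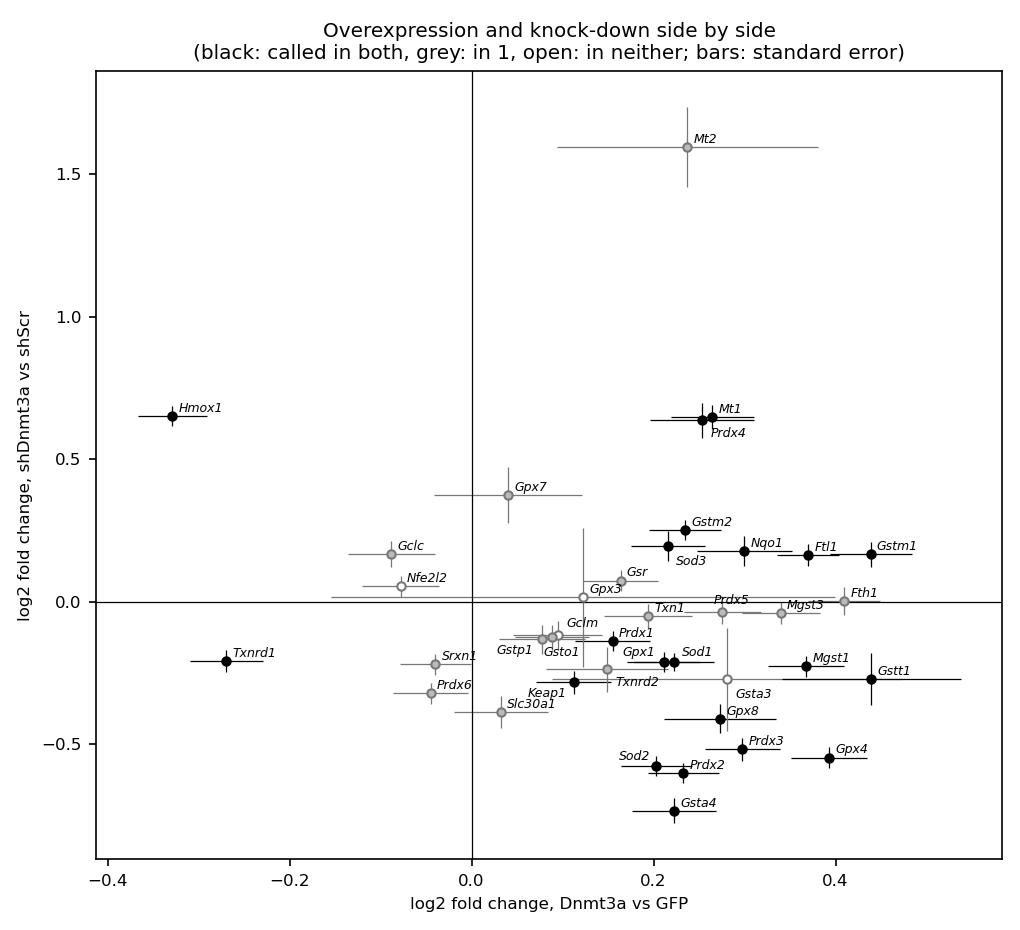
Log2 fold change of each tested member in Dnmt3a versus GFP (x axis) against shDnmt3a versus shScr (y axis), with standard errors as bars, black points called in both, grey in 1 and open in neither comparison. The 12 members at lower right in black were higher with overexpression and lower with knock-down. Hmox1 (−0.33 and 0.65) is the only black point at upper left, and Mt2 (0.24 and 1.60) lies at the top.

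The control groups, which differ in vector and insert, also differed from each other. In shScr against GFP cells 17 members were higher, 12 lower and 10 not called, so that 74.4% were called, against 45.2% of the 14133 features tested, 23% of them higher and 22.2% lower. The members' median was 0.12, and the CPM of the groups did not overlap for 27 members, against 52.6% of all features. Of the adipocyte markers 3 were higher and 6 lower, with sums of 20095.3 to 20544.1 CPM in shScr cells and 23910.2 to 24924 CPM in GFP cells. Of the fibroblast or preadipocyte markers 4 were higher and 3 lower, with sums of 9029.1 to 9651.9 CPM in shScr cells and 7516.8 to 7799.3 CPM in GFP cells. Col3a1 again held most of these sums, with means of 7587.5 CPM in shScr cells and 5627 CPM in GFP cells. The macrophage or leukocyte markers, 0 higher and 3 lower, summed to 12.6 to 14.1 CPM in shScr cells and 16.1 to 16.9 CPM in GFP cells. The part of these markers in the result was not tested. This comparison shares its libraries with both of the others, and its values are given beside theirs for the 9 members that reached 0.5 in size with knock-down. Hmox1 stood at 149 ± 3.91 CPM in shScr cells and 459 ± 6.93 CPM in GFP cells (−1.62, SE 0.039, adjusted p = 1.01e-18, edgeR), beside 0.65 with knock-down and −0.33 with overexpression. Mt2 was at −1.09 (SE 0.187, adjusted p = 5.35e-05) beside 1.60 with knock-down, and Mt1 at −0.39 (adjusted p = 4.69e-07) beside 0.65. Gsta4 was at 0.74 (SE 0.045, adjusted p = 1e-11) beside −0.73 with knock-down, its mean being 52.4 ± 2.00 CPM in shDnmt3a cells and 52.4 ± 1.90 CPM in GFP cells. Prdx4 was at −0.18 (adjusted p = 0.0205) beside 0.64 with knock-down, its mean being 40.8 ± 2.59 CPM in shDnmt3a cells and 30.0 ± 1.93 CPM in GFP cells, and its control call was lost without GFP replicate 2 (0.111) and without shScr replicate 1 (0.063) or 3 (0.0821). Prdx2, Prdx3, Sod2 and Gpx4 were at 0.34, 0.23, 0.40 and 0.35. Whether the shScr or the GFP libraries lie closer to untransduced adipocytes cannot be told apart in this design.

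Other genes of these pathways were read from fixed lists, and those named are the called genes with the smallest p of each list. The share of each list called is read against the 27.2% of all features called with overexpression and the 45.8% called with knock-down. Among 12 further regulators of NRF2 that were tested, 1 was higher and 6 were lower with overexpression (58.3% called), among them Bach1, a repressor that competes for AREs (−0.24), the small MAF gene Mafk (−0.25) and the kinase gene Gsk3b (−0.18). With knock-down 2 were higher and 3 lower (41.7%), a share below that of all features. Maff, another small MAF gene, rose by 1.46 with knock-down (SE 0.073, adjusted p = 4.36e-12, edgeR). Its mean was 20.4 ± 0.645 CPM in shDnmt3a cells and 7.42 ± 0.363 CPM in shScr cells, beside 19.6 ± 0.957 CPM in GFP cells (SD, n = 3 each), and it was at −1.39 in shScr against GFP cells (SE 0.077, adjusted p = 1.88e-12). With knock-down the autophagy receptor gene Sqstm1, whose product binds KEAP1, was at −0.27 and Nfe2l1 at −0.21.

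Of 21 further NRF2 target genes 6 were higher and 2 lower with overexpression (38.1%). Slc7a11, the cystine importer that feeds glutathione synthesis, fell by 0.89 (SE 0.063, adjusted p = 4.56e-13, edgeR), while Taldo1 of the pentose phosphate pathway (0.31) and Fech, the last enzyme of haem synthesis (0.24), rose. The mean of Slc7a11 was 16.5 ± 1.34 CPM in Dnmt3a cells and 30.6 ± 0.757 CPM in GFP cells (SD, n = 3 each). It was 12.9 ± 0.568 CPM in shScr cells and 14.8 ± 0.4 CPM in shDnmt3a cells, so GFP cells held the highest level. With knock-down 5 were higher and 7 lower (57.1%), led by Ugdh (0.66), the exporter gene Abcc4 (−0.61) and its relative Abcc1 (0.31). Of 15 further glutathione enzymes 8 were higher and 0 lower with overexpression (53.3%), with Gstm7 at 0.64 and the glyoxalases Glo1 and Hagh at 0.22 and 0.20. With knock-down 1 was higher and 5 were lower (40%), again a share below that of all features, with the gamma-glutamyl transferase genes Ggt1 at 0.83 and Ggt5 at −0.38 and with Hagh at −0.24.

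Of 16 further thiol redox genes 7 were higher and 1 lower with overexpression (50%), led by the selenoprotein genes Sepx1 (0.41) and Sepp1 (0.33) and by the glutaredoxin gene Glrx (0.26). With knock-down 5 were higher and 5 lower (62.5%), with the thioredoxin inhibitor Txnip at 0.51, the methionine sulfoxide reductase Msra at 0.53 and Sesn1 at −0.42. Of 28 further metal genes 9 were higher and 3 lower with overexpression (42.9%), and 8 were higher and 9 lower with knock-down (60.7%). Tfrc, the transferrin receptor that brings iron into the cell, rose by 0.48 with overexpression (SE 0.038, adjusted p = 7.21e-12, edgeR) and fell by 0.52 with knock-down (SE 0.041, adjusted p = 3e-09). Its control groups also differed, at 479.3 ± 26.1 CPM in shScr cells and 293.2 ± 7.28 CPM in GFP cells (SD, n = 3 each). Its means were 333.1 CPM in shDnmt3a cells and 406.6 CPM in Dnmt3a cells. Slc40a1, which encodes the iron exporter ferroportin, rose by 0.51 with knock-down, and so did Cp, the ferroxidase ceruloplasmin, by 0.57. The zinc importer gene Slc39a6 was at −0.41 and Ncoa4, the receptor that delivers ferritin to autophagy, at 0.27 with overexpression.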

How the data were processed

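RNA was extracted with an RNeasy kit, ribosomal RNA was removed with Ribo-Zero and libraries were made with TruSeq RNA v2. The authors deposited 1 table of raw counts for 27473 features in 12 libraries. Their processing notes name bcl2fastq 2.17.1.14, TopHat2 2.0.14, Picard 2.2.4, SAMtools 0.1.19, featureCounts 1.4.6 and mm9, with gene models modified to reduce overlaps. The strand setting of the counting is not stated in these sources, so antisense reads could be included.

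From these counts, TMM-scaled CPM were computed over all 12 libraries with edgeR 4.0.16 in R 4.3.3. Each comparison was fitted on its own 6 libraries with glmQLFit and glmQLFTest after filterByExpr, and the difference between the effects on all 12. DESeq2 1.42.0, RLE size factors, no scaling, other filters, a fit of all libraries, a replicate block, symbol sums, a threshold of 0.01 and each library left out were tried. Settings for the count of members with opposite calls were added after the data had been seen. The method was tested on simulated data. Depth was 29084732 to 47341091 counts, and the common biological coefficient of variation was 3.98% to 4.44%, so small differences could be called. No pair of replicates agreed within sampling noise (chi-square divided by its degrees of freedom, 2.52 to 10.7).

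The members and lists were chosen with earlier results of these data known. Values per library are given for Nfe2l2, Keap1 and each member called in a main comparison with a log2 fold change of 0.5 or more in size, and of each further list the 3 called genes with the smallest p in each main comparison are named. Promoter sequences are from RefSeq and gene models from GENCODE for mm9.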

Additional observations from a re-analysis of the deposited data

How the results depend on the processing

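No called member changed direction under any alternative tried. Without TMM scaling, which moved the median of all features in Dnmt3a versus GFP to −0.07, 6 members were lower in place of 2 (Nfe2l2, Gclc, Srxn1 and Prdx6 added), 21 were higher in place of 24 (Keap1, Gsr and Prdx1 lost), and the members' median was 0.15 in place of 0.22. With each library left out in turn that median ranged from 0.18, without GFP replicate 1, to 0.24, and members higher from 22 to 25. In shDnmt3a versus shScr, members lower ranged from 15 to 19 and members higher from 10 to 11. In shScr versus GFP, members higher ranged from 13 to 17. Keap1, Prdx1, Fth1 and Txnrd2, called higher there, each lost their call without some libraries, at adjusted p of up to 0.241 (edgeR). Prdx4 and Mgst1, called lower there, also lost their call without some libraries. Members with a called difference between the effects numbered 28 to 32 over all alternatives.

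Replicate numbers did not pair the libraries, since deviations of same-numbered libraries from their group means correlated at −0.049 to 0.0103. With replicate as a block the count of members called was 24 higher and 2 lower in Dnmt3a versus GFP, and the shScr versus GFP calls of Keap1, Prdx1 and Mgst1 were lost (adjusted p = 0.0817, 0.064 and 0.0742). Depth limits Gpx3, at 22 to 41 counts a library, and Gsta3, at 39 to 84.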
